A study of Mus musculus with 12 samples.

Results

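Hoxb2, Hoxb3, Hoxb4, Hoxc6 and Hoxc8 encode homeodomain transcription factors of the Hoxb and Hoxc clusters, and Meis1, Meis2, Pknox1, Pbx2 and Pbx3 encode the TALE-class homeodomain cofactors that bind DNA with them. These 10 genes were chosen by name from the 19057 genes that the platform annotation gives a single symbol on the array. Every probe annotated to them was taken, which gave 23 of the 45281 probes.

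The series asked how a mutation of Bcor affects gene expression in mouse bone marrow (BM) cells grown as myeloid progenitors. BCOR is a repressor and a subunit of the Polycomb complex PRC1.1. RNA of 12 samples was measured on 1-colour Illumina BeadChip arrays, 3 in each of 4 groups: CD34+ control, CD34+ Cre, BM control and BM Cre. All 12 samples, controls included, carried the BcorFl/Y allele, in which exons 9 and 10 lie between loxP sites. They came from mice of 3 months, and the cells were cultured with 10 ng/ml IL-3, 25 ng/ml IL-6 and 50 ng/ml of the growth factor SCF. Control cells received an empty retrovirus and Cre cells a retrovirus that expresses Cre recombinase, and both were selected with puromycin. The CD34+ samples were sorted from such cultures by flow cytometry, while the BM samples were not sorted. The CD34+ arrays come from marrows numbered 2 and 4. In each arm number 2 was measured on 2 repeats (F2-1 and F2-2) and number 4 on 1 array (F4), so each arm holds 2 marrows. The BM arrays carry repeat numbers 1 to 3, which the labels do not tie to separate animals. P-values therefore measure only the spread between these samples, which may be technical in part.

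Hox proteins on their own bind short and similar DNA sites. Pbx and Meis proteins bind beside them and lengthen the site that is read, and Meis and Pknox proteins form pairs with Pbx that bear on its stability and its entry into the nucleus. In blood, Hoxb4 and Meis1 are known for their activity in stem and progenitor cells, Meis1 also as a partner of Hoxa9 in leukaemia, and Polycomb complexes are known to hold Hox clusters silent.

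Promoter sequences are shown for Hoxb4 and Meis1, the members whose probes passed the test in the Cre comparison of BM cells. Each is the 250 bases before the gene start, 5′ to 3′ on the strand of the gene, from RefSeq (GRCm38.p6), and the capitals mark CG dinucleotides, the bases that can be methylated. Hoxb4 is at chr11:96318017-96318266 on the plus strand and Meis1 at chr11:19018970-19019219 on the minus strand.
Hoxb4: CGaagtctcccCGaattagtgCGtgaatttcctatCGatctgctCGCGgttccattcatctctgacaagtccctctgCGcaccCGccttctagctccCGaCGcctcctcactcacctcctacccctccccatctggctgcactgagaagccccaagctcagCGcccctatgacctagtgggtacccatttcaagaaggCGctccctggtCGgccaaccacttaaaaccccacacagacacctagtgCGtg
Meis1: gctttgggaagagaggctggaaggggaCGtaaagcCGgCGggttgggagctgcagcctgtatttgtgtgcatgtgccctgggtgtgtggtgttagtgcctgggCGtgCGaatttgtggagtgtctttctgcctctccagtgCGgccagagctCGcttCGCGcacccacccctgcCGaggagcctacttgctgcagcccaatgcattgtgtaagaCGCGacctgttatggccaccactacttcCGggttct
The Hoxb4 stretch held 14 CG dinucleotides and the Meis1 stretch 13. Of 32851 promoters of this length in the same table, 29.4% held at least as many as Hoxb4 and 31.5% at least as many as Meis1, with a median of 6. Of the 10 members 4 had a promoter in the table, and the stretch of Pbx2 held 27 CG dinucleotides and that of Meis2 7. The words TGACAG, the core of Meis and Pknox sites, and TGATNNAT, the core of Pbx and Hox sites, were searched on both strands. Neither occurred in any of the 4 stretches, against 15.9% and 7.68% of all promoters. CCAAT, held by 33.8% of promoters, occurred once each in Meis1 and Meis2, and TATAAA, held by 12.4%, once in Meis2. Hoxb3, Hoxb4 and Hoxb2 are neighbours on chromosome 11, and Hoxc8 and Hoxc6 on chromosome 15.

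A probe was called detected at a detection p-value under 0.05. This held for 15571 to 16372 probes on CD34+ arrays and 16985 to 17742 on BM arrays. Mast cell markers were detected in every group, all 9 genes on every array. Cd34 itself had a level of 10.26 ± 0.19 (SD, n = 3, log2) in CD34+ control cells and 10.17 ± 0.16 in unsorted BM control cells, and the arrays overlapped. The 2 detected Bcor probes lay lower on every BM Cre array than on every BM control array. They fell by 1.15 ± 0.24 (SE) and by 1.27 ± 0.22 on the log2 scale (limma, adjusted p = 0.00643 and 0.00207). Where these probes lie relative to exons 9 and 10 is not given in the sources used here. In CD34+ cells the array labelled Cre of marrow number 4 (F4) had Bcor levels of 9.95 and 8.84, no lower than its control (9.91 and 8.78). The Cre repeats of number 2 had 8.93 and 9.08 on the first probe, against 9.80 and 9.69 in their controls. Values for CD34+ cells are therefore given with and without the library labelled F4 Cre.

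Detection separated the members. Hoxb4, Meis1 (2 probes), Pbx2 (3 probes), Pbx3 (2 probes) and Pknox1 (2 probes) were detected on all 12 arrays, 10 probes in all. Of the other 13 probes, 5 were detected on 3 to 11 arrays, 1 on a single array and 7 on none. The single Hoxc6 probe was among the undetected ones, with a lowest detection p of 0.176, so nothing can be said of its changes. Hoxb3 has 4 probes, 1 of which was detected on 5 arrays, and Hoxb2 and Hoxc8 were detected on 5 and 3 arrays. The filter for testing, detection on at least 3 arrays, kept 15 member probes of 9 genes among 19274 probes of the series. A probe near this limit can pass through the group where it is brightest.

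**Figure D1:**
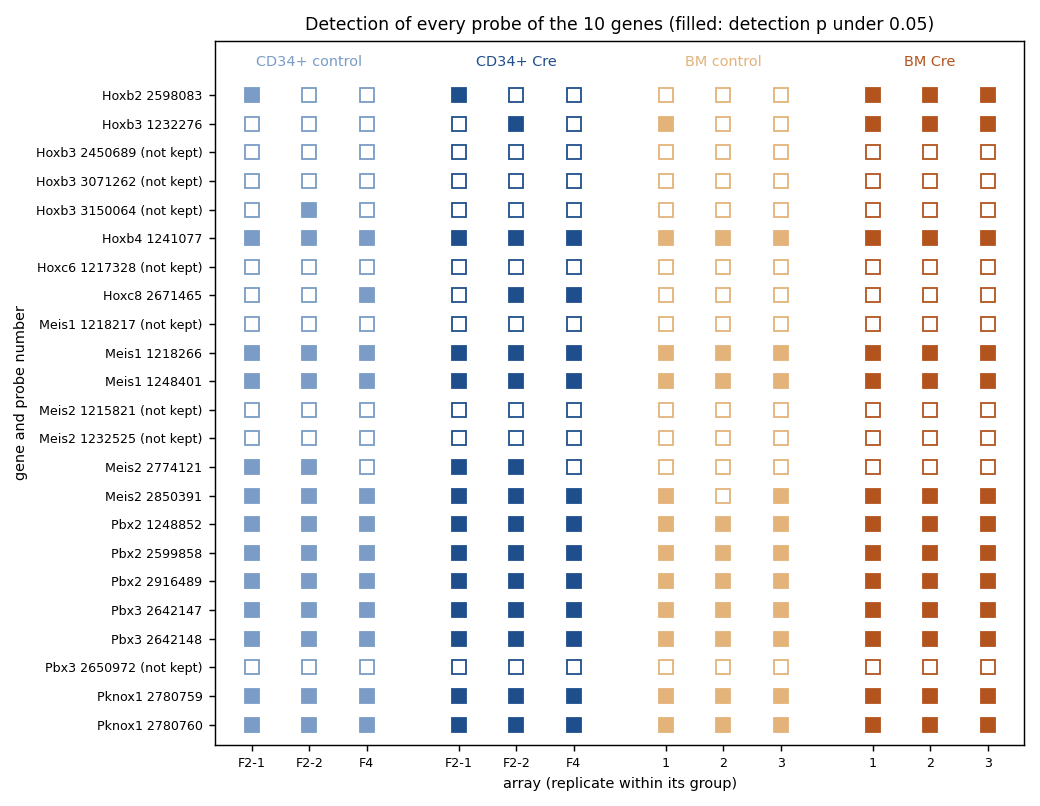
Detection of the 23 probes (vertical axis) on the 12 arrays (horizontal axis, grouped). A filled square marks a detection p under 0.05 and an open one no detection. Between 10 and 12 member probes were detected on the BM control arrays and 13 on each BM Cre array, and CD34+ arrays had 12 to 14.

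In BM cells, Cre arrays had more Hoxb4 transcript and less Meis1 transcript than control arrays, and no other member probe passed the test. Hoxb4 rose 2.70-fold and Meis1 fell to 55.0% of its control level. Of the 15 member probes 1 rose and 1 fell. Over all 19274 probes 14.0% were called, 7.09% up and 6.95% down, so the members' count lay near the background. The median difference was -0.05 over the member probes and -0.07 over all probes, on the log2 scale. Of all calls in this comparison 50.5% were higher with Cre, and 61.8% with median scaling.

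**Figure D2:**
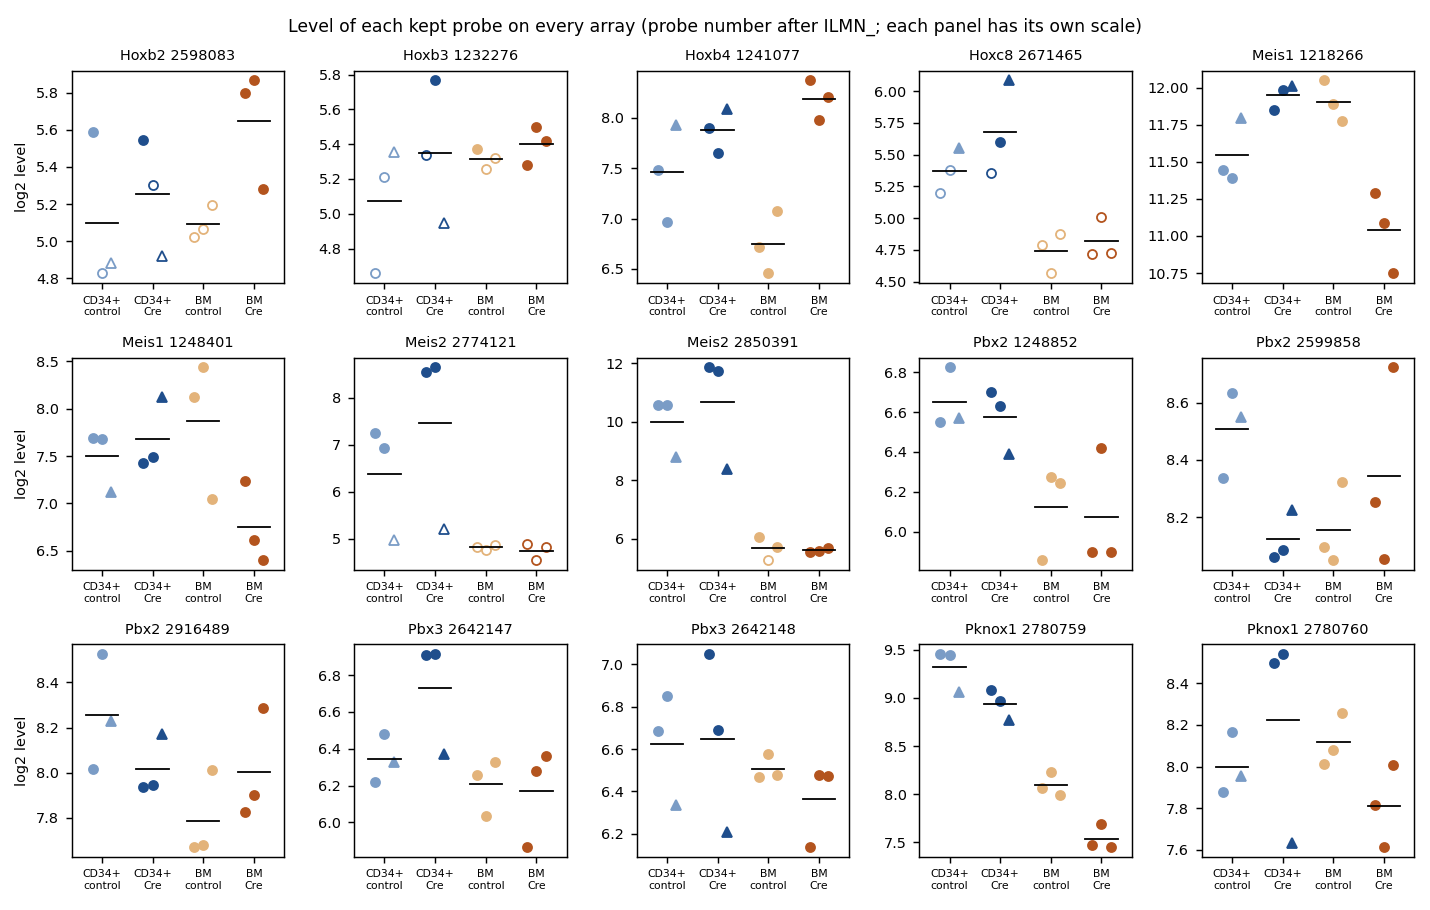
Log2 level (vertical axis) of each of the 15 kept probes on every array, by group (horizontal axis), with its own scale in each panel. Points are arrays (triangles: marrow number 4; open: not detected) and lines are group means. Hoxb4 lies between 7.97 and 8.37 on the BM Cre arrays and between 6.46 and 7.08 on the BM controls, and Meis1 between 10.75 and 11.29 against 11.78 to 12.05.

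Among the Hox genes, Hoxb4, which promotes self-renewal of blood stem cells when supplied in excess, had BM control levels of 6.71, 6.46 and 7.08 (log2). The BM Cre levels were 8.37, 7.97 and 8.20. All Cre arrays lay above all controls, and the difference was 1.43 ± 0.26 (SE, adjusted p = 0.00258). Its cluster neighbour Hoxb2, known for patterning the hindbrain, was undetected on all BM control arrays (5.03, 5.06 and 5.19) and detected on all BM Cre arrays (5.80, 5.87 and 5.28). The Hoxb2 arrays did not overlap, and a lower bound on the fold was 1.25, but the difference did not pass (adjusted p = 0.157). It passed in the authors' deposited table (0.77, adjusted p = 0.0365). There low values are set to 24, which can narrow the spread of undetected controls (intensity 15.8 to 19.1 before normalisation). Of the 5 arrays that detected Hoxb2, 3 were BM Cre, so the filter also favoured this direction. The neighbour Hoxb3 was detected on 1 BM control array and on 3 BM Cre arrays, with means of 5.32 ± 0.06 and 5.40 ± 0.11 (SD, n = 3). Its difference was 0.08, with a 95% interval from -0.40 to 0.57, and changes within it cannot be told from none at this precision. Hoxc8 was undetected on every BM array.

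Meis1 is the cofactor that blood stem cells need and that cooperates with Hoxa9. On probe ILMN_1218266, drawn from a RefSeq transcript, the BM control levels were 12.05, 11.89 and 11.78 and the BM Cre levels 11.29, 11.09 and 10.75. All Cre arrays lay below all controls, by 0.86 ± 0.16 on the log2 scale (adjusted p = 0.00282). A probe from a cDNA record (ILMN_1248401) had 8.12, 8.44 and 7.04 in controls and 7.24, 6.61 and 6.40 in Cre cells. The groups overlapped through control repeat 3, and the difference of -1.12 ± 0.36 did not pass (adjusted p = 0.0593). It passed in the paired fit, which blocks on the repeat number (adjusted p = 0.0139), without control repeat 3 (-1.53, adjusted p = 0.0109) and without the library labelled F4 Cre (adjusted p = 0.0377), which enters the shared spread. The third Meis1 probe was not detected on any array.

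Pknox1, also called Prep1, pairs with Pbx as Meis proteins do. Its probe ILMN_2780759 had levels of 8.06, 8.23 and 7.99 in BM control cells and 7.47, 7.69 and 7.45 in BM Cre cells. The groups did not overlap, but the difference of -0.55 ± 0.17 did not pass (adjusted p = 0.0516). It was farther from the threshold with median scaling (-0.45, adjusted p = 0.224) and in the authors' deposited table (-0.44, adjusted p = 0.214). It passed in 8 alternatives, with adjusted p from 0.00849 in the paired fit to 0.0498 without background correction. These include the fits without the CD34+ F4 array of the control or the Cre arm (adjusted p = 0.0301 and 0.0335). The second Pknox1 probe (ILMN_2780760) had 8.01, 8.08 and 8.26 in controls and 7.81, 7.61 and 8.01 in Cre cells, and its difference of -0.31 ± 0.24 did not pass (adjusted p = 0.468). With the block, or without the library labelled F4 Cre, 4 of the 15 member probes passed in BM cells in place of 2. Over all probes 5078 passed with the block and 3771 (19.6%) without that library, in place of 2706.

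The Pbx genes encode the partner proteins shared by Hox, Meis and Pknox factors. In BM cells the 3 Pbx2 probes differed by -0.05, 0.19 and 0.22 between Cre and control, and the 2 kept Pbx3 probes by -0.04 and -0.14. None passed. The 95% intervals of these 5 probes together ran from -0.65 to 0.65, and changes within that range cannot be told from none. Meis2 was near its detection limit in BM cells, and its probe ILMN_2850391 had 6.08, 5.28 and 5.72 in controls and 5.56, 5.60 and 5.69 in Cre cells. Over all member probes the arrays of the 2 BM groups did not overlap for 2 probes that were higher and 3 that were lower with Cre, 5 of 15, against 38.7% of all probes (15.8% higher and 22.9% lower).

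Markers of other cells moved in the same BM comparison. All 13 neutrophil granule probes (9 genes) rose, among them Mpo, Prtn3 and Elane (at least 992-fold, 443-fold and 295-fold) and Ngp (73.9-fold). These Mpo, Prtn3 and Elane probes were kept for testing only through the BM Cre arrays, so the filter favoured a rise for them. Ltf, Ngp, S100a8 and S100a9 were detected on every BM control array. The summed level of the 9 genes, on a linear scale, was 7349 to 11255 on control arrays and 176239 to 216212 on Cre arrays. Eosinophil markers summed to 1414 to 10830 in controls and 65790 to 69301 with Cre, and Epx and Prg2 rose 92.5-fold and 16.1-fold. The summed mast cell markers were 280486 to 311097 in controls and 237175 to 269735 with Cre, and 7 of their 16 kept probes fell and 2 rose. Hdc, the enzyme that makes histamine, rose 12.3-fold, while Ms4a2, Kit and Fcer1a fell by 0.80, 1.27 and 0.47 on the log2 scale. The Kit value is from a dim probe (ILMN_1250169, 6.87 in controls and 5.60 with Cre). The bright Kit probe ILMN_1246876 had means of 15.31 and 14.42. Stem and progenitor markers summed to 35021 to 46761 and 17174 to 28600, and 4 of their 6 kept probes fell and 1 rose. Cd34 fell by 1.12 ± 0.25 on the log2 scale (adjusted p = 0.00922), and the 3 Kit probes also fell. Prom1, detected on no control array, rose at least 2.86-fold (adjusted p = 3.85e-05). Its kept probe was detected on BM Cre arrays alone, so the filter favoured this direction. Monocyte markers summed to 1098 to 1632 and 3524 to 5895, erythroid markers to 898 to 1988 and 3248 to 7354, and megakaryocyte markers to 9179 to 12992 and 4565 to 7679. Of these the monocyte genes Cd14, Adgre1 and Csf1r rose 8.09-fold, 3.28-fold and 5.13-fold. Ccr2 had means of 7.93 in controls and 6.80 with Cre (log2) and did not pass. The erythroid genes Klf1 and Hba-a1 rose 8.09-fold and 5.06-fold, and Car1 at least 9.36-fold. Car1 was detected on BM Cre arrays alone, so the filter favoured its rise. Vwf and Itga2b fell by 1.66 and 0.94 on the log2 scale, and Gp9 rose 2.74-fold. Pf4 had means of 10.77 in controls and 10.63 with Cre, and the brightest Ppbp probe 6.59 and 7.36. Neither gene passed. The B cell marker Vpreb1 differed by 0.05 and did not pass. No T cell or stroma marker probe was kept. The part of these cells in the Hoxb4, Meis1 and Pknox1 differences was not tested. In bulk RNA, fewer cells of a type and less RNA per cell cannot be told apart.

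In CD34+ cells no member probe passed the test, with 0 of 15 called in limma at an adjusted p under 0.05, against 0.617% of all probes (0.379% up and 0.239% down). At an unadjusted p under 0.05 there were 2 of 15 member probes, against 11.8% of all probes. The median difference was 0.23 over the member probes and 0.01 over all probes. The arrays of the groups did not overlap for 1 probe that was higher (Meis1) and 1 that was lower (Pbx2) with Cre, 2 of 15, against 13.9% of all probes (7.17% higher and 6.72% lower). Leaving out the library labelled F4 Cre, 2 member probes passed, both of Meis2, while over all probes 1816 (9.42%) passed in place of 119. With marrow number as a replicate block 1 member probe passed (Meis2 ILMN_2774121) and 907 of all probes. With marrow number and repeat together as the block 0 member probes passed, and that probe lost its call (adjusted p = 0.0714).

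Hoxb4 levels in CD34+ cells were 7.48, 6.97 and 7.93 on the control arrays F2-1, F2-2 and F4, and 7.90, 7.65 and 8.09 on the Cre arrays. The groups overlapped, and the difference was 0.42 ± 0.26 (95% interval -0.15 to 0.98, adjusted p = 0.552). Meis1 (ILMN_1218266) had 11.45, 11.39 and 11.80 in control and 11.85, 11.98 and 12.01 in Cre cells. Every Cre array lay above every control, by 0.40 ± 0.16, which did not pass (adjusted p = 0.339). Without the library labelled F4 Cre the differences were 0.31 for Hoxb4 and 0.37 for Meis1, and neither passed (adjusted p = 0.518 and 0.204). The Meis1 probe ILMN_1248401 had 7.69, 7.68 and 7.12 in control and 7.42, 7.49 and 8.12 in Cre cells, which overlap. Hoxc8, known for patterning the trunk, had 5.19, 5.38 and 5.55 in control and 5.36, 5.60 and 6.08 in Cre cells, near the detection limit. It was detected on 1 control and 2 Cre arrays, and its difference was 0.31 ± 0.19 (adjusted p = 0.562). Pknox1 (ILMN_2780759) had 9.46, 9.45 and 9.06 in control and 9.08, 8.97 and 8.77 in Cre cells, which overlap. Without the library labelled F4 Cre its difference was -0.29 (adjusted p = 0.331). Its second probe had 7.88, 8.16 and 7.96 in control and 8.50, 8.54 and 7.63 in Cre cells, where the F4 array lay lowest. That difference was 0.23 (adjusted p = 0.761), and 0.52 without the library labelled F4 Cre (adjusted p = 0.0974). The Pbx2 probe ILMN_2599858 was lower on all Cre arrays, with a difference of -0.38 ± 0.19 (adjusted p = 0.466), and the other 4 kept Pbx probes ranged from -0.24 to 0.39. In these cells the summed neutrophil markers were 16774 to 33738 in controls and 32135 to 36040 with Cre, mast cell markers 289987 to 301447 and 225537 to 300047, and erythroid markers 793 to 1608 and 842 to 6226. The neutrophil sum was almost all Ctsg (14.61 ± 0.53 in controls, SD, n = 3). Of the 9 neutrophil genes 8 were undetected on every CD34+ control array. No marker probe of any list passed here, and the smallest p of each list with a detected gene was that of Hdc (1.66, adjusted p = 0.0580), Vwf (-1.01, adjusted p = 0.172), Hbb-bt, Ctsg, Ccr2, Kit or Vpreb1 (adjusted p = 0.453 to 0.814). Their part was not tested.

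**Figure D3:**
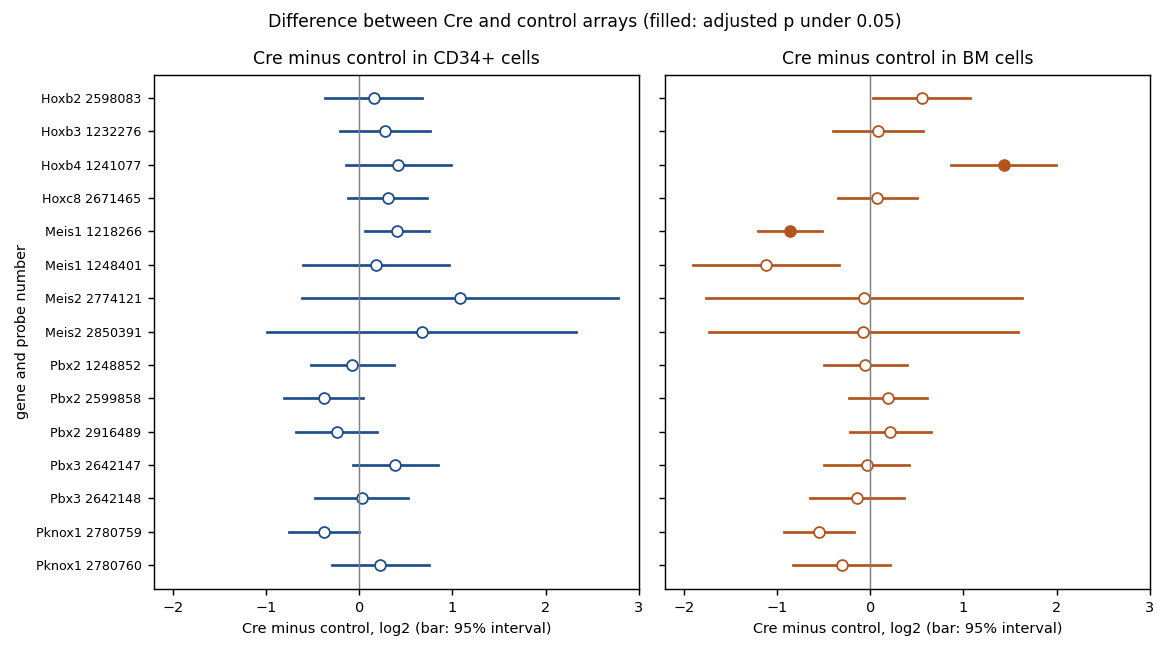
Difference between Cre and control arrays (horizontal axis, log2, with 95% intervals) for the 15 kept probes (vertical axis) in CD34+ cells on the left and BM cells on the right. Filled points passed an adjusted p of 0.05. In BM cells Hoxb4 (1.43) and Meis1 (-0.86) are filled, no point is filled in CD34+ cells, and the Meis2 intervals are the widest of the 15.

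Meis2, a relative of Meis1 best known from limb and heart development, had unlike levels in the 2 marrows. Its probe ILMN_2850391 had 10.57 and 10.58 in control cells of number 2 and 11.86 and 11.73 in the matching Cre cells. In number 4 it had 8.81 in control and 8.38 in Cre cells. Its probe ILMN_2774121 had 7.24 and 6.93 in number 2 controls, 8.55 and 8.65 with Cre, and was undetected in number 4 (4.98 and 5.21).

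Within number 2, Cre minus control was 1.22 and 1.51 on ILMN_2850391 and ILMN_2774121. Within number 4 it was -0.43 on the first, and the second gives no difference there. Over both marrows the differences were 0.67 ± 0.76 and 1.08 ± 0.78 (adjusted p = 0.779 and 0.618). Without the library labelled F4 Cre they were 1.81 (adjusted p = 0.0253) and 2.21 (adjusted p = 0.0173), but this compares Cre cells of number 2 alone with controls of both numbers. With marrow number as a replicate block the adjusted p was 0.218 for the first of these probes and 0.0391 for the second, which did not pass with marrow number and repeat together as the block. Number 2 exceeded number 4 by 1.77 in control and 3.42 in Cre cells on the first. On the second it was at least 3.11-fold higher in control and at least 8.0-fold higher in Cre cells. A marrow is 1 source of cells, so no spread between marrows can be given. Without the library labelled F4 Cre, 4 of the 8 erythroid probes, all of the globin gene Hbb-bt, also rose in CD34+ cells. Klf1 and Car1, undetected on all of these arrays, give no difference, and Hba-a1 had -0.18. Of the mast cell genes Mcpt4 and Tpsb2, which are proteases, fell and 1 probe of Hdc rose (1.46, adjusted p = 0.0297), and of the megakaryocyte genes Vwf fell by 1.40 on the log2 scale (adjusted p = 0.00148). Their part in the Meis2 values was not tested.

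**Figure D4:**
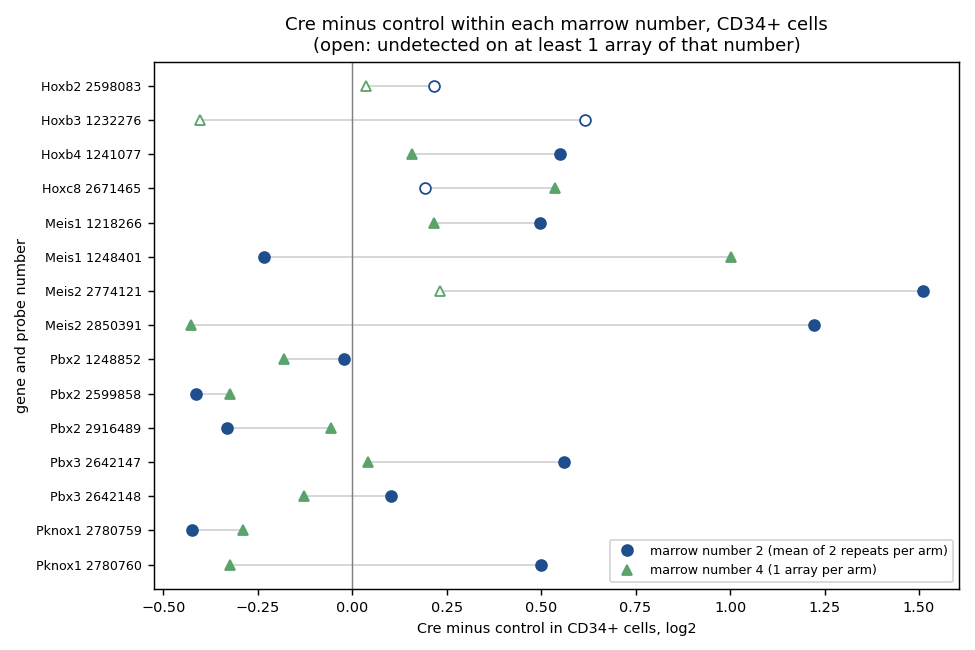
Cre minus control in CD34+ cells (horizontal axis, log2) for the 15 kept probes (vertical axis), within marrow number 2 (circles, means of 2 repeats) and number 4 (triangles, 1 array per arm). Open symbols mark probes undetected on at least 1 array of that number. The Meis2 probes lie at 1.22 and 1.51 in number 2, ILMN_2850391 lies at -0.43 in number 4, and the Meis1 probe ILMN_1218266 is above 0 in both (0.50 and 0.22).

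The Cre effect of CD34+ cells minus that of BM cells was tested directly. Of the 15 member probes 1 passed, with a positive difference, against 4.75% of all probes (1.28% positive and 3.48% negative). Meis1 (ILMN_1218266) differed by 1.27 ± 0.22 (adjusted p = 0.00496), with Cre arrays above controls in CD34+ cells and below them in BM cells. Its probe ILMN_1248401 had a difference of 1.30 ± 0.51, which did not pass (adjusted p = 0.221). For Hoxb4 the difference was -1.01 ± 0.37 (adjusted p = 0.177), and it passed with the number as a replicate block (adjusted p = 0.0432). Without that block, the size of the Hoxb4 response was not shown to differ between the populations. The median over the member probes was 0.19 and over all probes 0.07. Over all probes 26.9% of the calls in this comparison were positive, and 16.4% with median scaling.

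In control cells, the sorted CD34+ population had more Meis2 and more of one Pknox1 probe than unsorted BM cells, and Hoxb4 and Hoxc8 also passed. Of the 15 member probes 4 were higher and 0 lower, where Hoxc8 was kept for testing only through CD34+ arrays. Over all probes 39.9% were called, 20.4% higher and 19.5% lower in CD34+ cells. The median was 0.35 over the member probes and 0.05 over all probes. Median scaling moved the median of all probes to -0.26 and the share of calls that were higher in CD34+ cells from 51.1% to 23.4%, and the authors' table gave 36.7%. Leaving out the library labelled F4 Cre, 6 member probes passed and 46.0% of all probes. Whether the arrays of both populations were run together is not given in the sources used here, so population and run cannot be told apart. This comparison shares its BM control arrays with the BM Cre comparison.

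Meis2 (ILMN_2850391) was 19.6-fold higher in CD34+ control cells (10.57, 10.58 and 8.81) than in BM control cells (6.08, 5.28 and 5.72), a difference of 4.29 ± 0.76 (adjusted p = 0.000821). All CD34+ arrays lay above all BM arrays, and the difference passed in every alternative run, with values from 3.61 to 4.88. The second Meis2 probe was undetected in BM cells, with a lower bound of 2.08-fold, and did not pass (adjusted p = 0.129). It passed without the library labelled F4 Cre (adjusted p = 0.0119) and without the F4 control array (adjusted p = 0.0375). The 4 arrays that detected this probe were all CD34+, so the filter favoured this direction and these passes are no support for a difference. Pknox1 (ILMN_2780759) was 2.34-fold higher in CD34+ control cells, by 1.23 ± 0.17 (adjusted p = 0.000158), and this passed in every alternative run. The second Pknox1 probe had 7.88, 8.16 and 7.96 in CD34+ and 8.01, 8.08 and 8.26 in BM control cells, a difference of -0.12 ± 0.24. The 2 probes of this gene thus disagree on the populations. Which transcripts each probe reads was not analysed here.

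Hoxb4 was higher in CD34+ than in BM control cells by 0.71 ± 0.26 (adjusted p = 0.0459), with arrays that overlap. With median scaling the difference was 0.19 (adjusted p = 0.653), and the call was also lost without any one of the CD34+ control arrays F2-1 and F4, the CD34+ Cre arrays F2-1 and F2-2, BM control repeats 1 and 2 and the 3 BM Cre arrays (adjusted p = 0.0525 to 0.160). Hoxc8 was undetected on the 3 BM control arrays and on 2 of the 3 CD34+ control arrays, and its lower bound was 1.03-fold (adjusted p = 0.0214). The 3 arrays that detected it were all CD34+, so the filter favoured this direction and the call is no support for a difference. It was lost in the authors' deposited table (0.16, adjusted p = 0.671) and with marrow number as a random block (adjusted p = 0.0740). It was also lost without CD34+ control F2-2 (adjusted p = 0.0532) or F4 (adjusted p = 0.0654), and without BM control repeat 2 (adjusted p = 0.0811). Meis1 (ILMN_1218266) had a difference of -0.36 ± 0.16 (adjusted p = 0.0882). It passed with median scaling (-0.64, adjusted p = 0.0240), without the CD34+ control F4 (adjusted p = 0.0304) and without BM Cre repeat 3 (adjusted p = 0.0476). The 3 Pbx2 probes differed by 0.35 to 0.52 with no overlap and none passed, although ILMN_1248852 did without the library labelled F4 Cre (adjusted p = 0.0478) or BM Cre repeat 2 (adjusted p = 0.0468). With median scaling that probe had 0.09 (adjusted p = 0.779) and the other 2 changed sign (-0.18 and -0.08). The arrays did not overlap for 7 member probes, all higher in CD34+ cells, against 54.9% of all probes (29.1% higher and 25.8% lower).

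**Figure D5:**
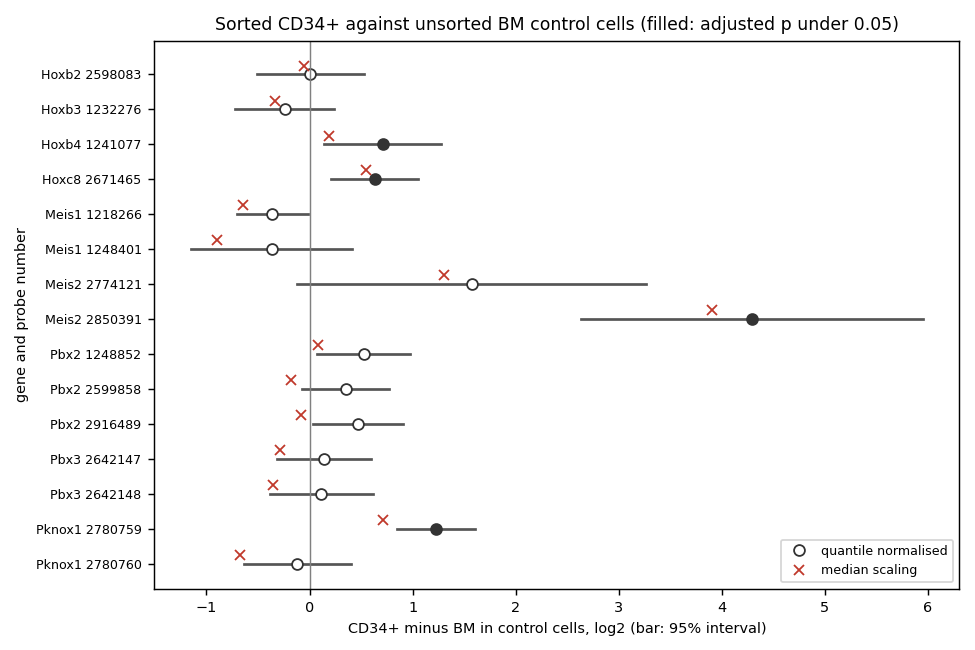
CD34+ minus BM level in control cells (horizontal axis, log2, with 95% intervals) for the 15 kept probes (vertical axis), with crosses for median scaling. Filled points passed an adjusted p of 0.05. Meis2 lies farthest to the right at 4.29, Pknox1 has 1 probe at 1.23 and the other at -0.12, and the cross of Hoxb4 is at 0.19.

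Over the 4 groups, the Hoxb4 means were in the order BM Cre (8.18 ± 0.20, SD, n = 3), CD34+ Cre (7.88 ± 0.22), CD34+ control (7.46 ± 0.48) and BM control (6.75 ± 0.31). The arrays of each pair of neighbours in this order overlapped. Meis1 means were 11.95 ± 0.09 in CD34+ Cre, 11.91 ± 0.14 in BM control, 11.54 ± 0.22 in CD34+ control and 11.04 ± 0.27 in BM Cre cells. The first pair does not differ beyond its spread, and BM Cre arrays lay below every other array. Over the 12 arrays, the named genes with the highest correlation with Hoxb4 were Slc45a4 (r = 0.952), Dcaf5 (r = 0.921) and Faah (r = 0.907). For Meis1 they were Ttc39b (r = 0.948), Mgat4b (r = 0.925) and Alox5 (r = 0.917). These correlations describe 12 arrays in 4 groups, so they include the differences between groups.

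Other genes of the same pathway were counted from lists. Of the remaining Hox genes, 10 probes of 9 genes were kept out of 33 genes on the array. In BM cells 4 of these probes rose and 0 fell, all of the Hoxa cluster, namely Hoxa7 (at least 15.9-fold, adjusted p = 3.32e-09), Hoxa5 (at least 5.49-fold, adjusted p = 7.02e-08) and Hoxa9 on both probes (at least 2.41-fold and 2.26-fold). None of these Hoxa probes was detected in BM control or CD34+ cells. They were kept for testing only through the BM Cre arrays. The filter thus favoured a rise in this count and in the list median for BM cells. In CD34+ cells 0 of 10 passed, and Hoxc10 had the smallest p (0.70 ± 0.21, adjusted p = 0.205). When the library labelled F4 Cre was left out, Hoxc10 (0.90 ± 0.20, adjusted p = 0.0164) and Hoxb5, undetected in CD34+ control cells (at least 2.40-fold, adjusted p = 0.00687), passed there. The median difference of the list was 0.25 in BM cells and 0.12 in CD34+ cells, against -0.07 and 0.01 over all probes.

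Of other TALE and Pbx-binding genes, 7 probes of 4 genes were kept. Tgif1, a TALE repressor, rose in both populations, by 1.12 ± 0.18 in CD34+ cells (ILMN_1212717, adjusted p = 0.0185) and by 1.15 ± 0.23 in BM cells (ILMN_1253854, adjusted p = 0.00468). These are different probes. The first had 0.78 in BM cells (adjusted p = 0.0132) and the second 0.93 in CD34+ cells (adjusted p = 0.111). Both Tgif1 probes passed in BM cells and 1 in CD34+ cells, where both passed without the library labelled F4 Cre (1.15 and 0.91, adjusted p = 0.00562 and 0.0440). Activators of Hox genes, such as the Mll-type methyltransferases and their partners, gave 0 calls among 22 probes in either Cre comparison. Rbbp5 had the smallest p in BM cells (-0.45 ± 0.19, adjusted p = 0.152). In CD34+ cells the smallest p was that of 1 of the 3 kept Mllt1 probes (ILMN_2756121, adjusted p = 0.506). That probe was detected on 1 CD34+ array of these groups. Of genes known as targets of Hox and Meis1, 11 probes of 6 genes were kept. In BM cells 1 of 3 Myb probes rose by 0.72 ± 0.16 (adjusted p = 0.00880) and 1 of 2 Sox4 probes (ILMN_2727116) at least 2.98-fold (adjusted p = 0.0223), and none fell. That Sox4 probe was detected on Cre arrays alone, so the filter favoured a rise of it in both populations. In CD34+ cells none passed, and the same Sox4 probe, undetected in controls, was at least 2.99-fold higher (adjusted p = 0.129). Without the library labelled F4 Cre it rose at least 5.76-fold (adjusted p = 0.000124), while the other Sox4 probe had -0.41 (adjusted p = 0.277). Among PRC1.1 genes, 17 probes of 10 genes were kept, and the 2 Bcor probes in BM cells were the only calls in the Cre comparisons, with Bcorl1 at 0.88 in CD34+ cells (adjusted p = 0.154). In CD34+ cells 4 of the 17 probes passed without the library labelled F4 Cre. Both Bcor probes fell, by 0.80 ± 0.18 and by 0.68 ± 0.19 (adjusted p = 0.0175 and 0.0477), and Bcorl1 and 1 of 4 Kdm2b probes rose by 1.09 ± 0.23 and 0.74 ± 0.17 (adjusted p = 0.0127 and 0.0193). The other 3 Kdm2b probes had 0.48, 0.19 and 0.0067 and did not pass. That library was left out for its Bcor level, so these Bcor calls are no independent evidence, and all calls without it compare Cre cells of number 2 alone with controls of both numbers.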

How the data were processed

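RNA of 12 samples was measured on Illumina arrays. The deposited scanner table gives, per the file headers, the intensity of every probe on each array and its detection p-value. Its intensity is linear, background-subtracted (lowest -32.7) and not scaled between arrays. A second deposited table holds the authors' linear intensity with low values set to 24, with its method and centring unstated. The submitters' processing notes name RMA, with no role. Here the deposited intensity was corrected with normexp from detection p-values, quantile normalised and turned to log2 after adding 16 (neqc of limma 3.58.1 in R 4.3.3). The 19274 probes detected (p under 0.05) on 3 or more of 12 arrays entered 1 limma model of 4 group means. The model had 8 residual and 4.12 prior degrees of freedom. P-values had Benjamini-Hochberg adjustment over all of these probes within each comparison, with a threshold of 0.05. The model was also run on simulated data with independent noise, which does not cover the correlation between arrays of a marrow. Where a group was undetected, a fold is a lower bound against, on each array, the higher of the probe's own signal and the lowest detected signal. The number of arrays limits the precision.

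All 10 members are named with every kept probe, Bcor always, and up to 4 genes of each other list by smallest p among calls, or else the smallest p. For likeness the 3 highest Pearson correlations are named, leaving out clone names. Members and lists were chosen with earlier results of these data known.

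Same-numbered samples deviated together. Correlations of control and Cre deviations over probes were 0.327 to 0.349 within marrow number 2 and 0.488 within number 4, and 0.121, 0.404 and 0.353 for BM repeats 1, 2 and 3. The numbers of the CD34+ samples are marrow numbers in the labels. For the BM samples the pairing by repeat number rests on these correlations, so on the same data as the paired fits. It is weak for repeat 1 (0.121, against 0.0353 for control 1 with Cre 3). A fit with these numbers as a block is given where it changes a call. Alternatives were background correction, scaling, offset, filter, the authors' table, 1 probe per gene, blocks, averaged repeats and leaving out each array.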

Additional observations from a re-analysis of the deposited data

Results flagged for a closer look

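The response of Meis1 (ILMN_1218266) to Cre differed between the populations by a direct test of the difference, 1.27 ± 0.22 on the log2 scale (CD34+ minus BM, limma adjusted p = 0.00496). All 3 Cre arrays lay above all controls in CD34+ cells (0.40) and below them in BM cells (-0.86). The difference passed in every alternative run, with a highest adjusted p of 0.0452 when the repeats of marrow number 2 were averaged. The neutrophil, eosinophil, mast and stem cell markers of the BM samples moved in the same comparison, and their part was not tested.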

How the results depend on the processing

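The 7 called member results kept their direction in every alternative run, and the calls lost were those of Hoxb4 and Hoxc8 between the control populations. Of the uncalled results, 18 changed sign in some alternative, and the cause was not tested beyond the construction of each alternative. The CD34+ minus BM difference in control cells turned with median scaling for Hoxb2 (-0.049), Pbx2 (ILMN_2599858, -0.18, and ILMN_2916489, -0.083) and Pbx3 (-0.29 and -0.36). It also turned for Hoxb2 without background correction (-0.10), with averaged repeats of marrow number 2 (-0.048) and with marrow number as a random block (-0.040). In the authors' table it turned for Hoxb3 (0.068) and Pbx3 (-0.22 and -0.28). The BM difference turned with median scaling for Meis2 (0.019), Pbx2 (0.065) and Pbx3 (0.081). For Pbx3 ILMN_2642148 in CD34+ cells the value was -0.0026 in the authors' table, -0.014 with averaged repeats and -0.0077 with the random block, and for Pbx2 ILMN_1248852 the difference of effects was 0.0037 in the authors' table.

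Leaving out 1 array at a time, Hoxb2 between populations ran from -0.24 to 0.14, and the difference of effects from -0.017 to 0.39 for Hoxb3, -0.11 to 0.15 for Pbx2 and -0.031 to 0.39 for Pbx3. In BM cells Hoxc8 ran from -0.021 to 0.14, Meis2 from -0.13 to 0.038 and from -0.28 to 0.12, Pbx2 from -0.23 to 0.034 and from -0.0013 to 0.33, and Pbx3 from -0.13 to 0.11. In CD34+ cells Meis1 ILMN_1248401 ran from -0.043 to 0.31, Pbx2 from -0.14 to 0.018 and Pbx3 from -0.18 to 0.25. Member calls ran from 0 to 2 in CD34+ cells, 2 to 4 in BM cells and 2 to 6 between populations, the highest each time without the library labelled F4 Cre. Calls over all probes ran from 39 to 1816 in CD34+ cells, 1792 to 3771 in BM cells and 5943 to 8860 between populations.

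In the paired fits, with the marrow or repeat number as a replicate block, member calls became 1 in CD34+ cells, 4 in BM cells and 2 for the difference of effects, and calls over all probes 907, 5078 and 1949. With marrow number and repeat together as the block they were 0, 4 and 2 members, and 365, 4269 and 1498 probes. The paired fit changed no other member call than those given with the results. Over all probes, CD34+ calls were 79 with median scaling, 75 with 1 probe per gene, 21 with averaged repeats, 23 with the random block and 14 with only the compared arrays. BM calls were 1260 in the authors' table and 1725 with 1 probe per gene, and those for the difference 296 and 593, with 495 for averaged repeats and 500 for the random block. Calls between populations were 4641 and 3916, and 2 members with the random block. Probes near the detection limit (Hoxb2, Hoxb3, Hoxc8) limit what can be read from those genes. The list counts in CD34+ cells without the library labelled F4 Cre were added after its Bcor level had been seen.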
